A study of Mus musculus with 3 samples.

Results

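The genes described here encode 10 chains of interleukin and interferon-gamma receptors other than those of interleukin-2. They were taken by name as Il7r, Il4ra, Il21r, Il6ra, Il6st, Il27ra, Ifngr1, Ifngr2, Il10ra and Il12rb1, and make 10 of the 50600 annotated genes counted, or 10 of 21764 protein-coding genes. RNA was sequenced in 3 libraries of mouse regulatory T cells (Treg), numbered biological replicates 2, 3 and 4. All 3 are primary cells of strain C57BL/6NJ, and per the file headers they had been activated for 16 hours. With 1 group there is no treated or control condition: genes were set against one another inside a library, and the libraries against one another. The labels give 1 donor identifier for all 3, record neither sex nor age, and link a differentiation protocol for CD4 T cells; the sort, the activating agents and the culture are not given in the labels. Separate animals are not stated. The libraries differed in sex-linked RNA (Xist at 126, 0.331 and 36.1 TPM in replicates 2, 3 and 4), so they are not repeats of 1 RNA sample. SDs and p-values describe how these libraries vary, and how much of that is technical was not tested.

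Most of these proteins are single-pass receptors that work in pairs. A chain that binds the cytokine is joined by a partner, and Janus kinases (JAKs) on the inner part of the receptor activate STAT transcription factors. Il7r, Il4ra and Il21r pair with the common gamma chain Il2rg, Il6ra and Il27ra with the signalling chain Il6st (gp130), and Il12rb1 with Il12rb2 or Il23r. Ifngr1 and Ifngr2 make the interferon-gamma receptor, and Il10ra pairs with Il10rb. In Treg cells the chain Il7r is known for its low level, which is used to tell these cells from conventional CD4 T cells.

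The libraries held 41222058 to 99097524 fragments assigned to genes, and log2 counts scaled to library size correlated between them with Pearson's r of 0.994 to 0.996 across 13688 genes, which are not independent replicates. Genes that define T cells and Treg cells were present, with Cd3e at 212 ± 6.65 TPM (transcript abundance: counts scaled for gene length and library total) and Foxp3 at 80.9 ± 3.97 TPM (SD, n = 3). Among 5 Treg markers, 4 reached 10 TPM in every library, and Ikzf2, the lowest, was at 3.22 ± 0.655 TPM. Il6ra, Il10ra and the interferon-gamma receptor chains are also made by myeloid and B cells. Summed over 6 monocyte or macrophage markers the level was 0.0595 to 0.254 TPM, with no fragment of Csf1r, Lyz2 or C1qa, and 4 of 4 neutrophil markers had no fragment. Of 5 B cell markers, 1 reached 1 TPM in every library and none was at 0, with a summed level of 5.10, 9.14 and 5.67 TPM in replicates 2, 3 and 4. Of 5 dendritic cell markers, 1 did so, H2-Eb1 at 3.95 ± 1.70 TPM, and Xcr1 and Siglech had no fragment, with a summed level of 2.63, 3.70 and 5.93 TPM. Of the CD8 T cell markers, Cd8b1 was at 28.2, 28.6 and 23.9 TPM and Cd8a at 0.338, 0.403 and 0.508 TPM. The part of these cell types in the receptor levels was not tested. In bulk RNA, fewer cells with a transcript and less of it per cell cannot be told apart.

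All 10 receptor chains reached 1 TPM in every library, where 45.6% of protein-coding genes did. A level of 10 TPM was reached throughout by 8 of the 10, and by 34.8% of protein-coding genes. A level of 100 TPM was reached throughout by 1 of the 10, Il21r, and by 8.8% of protein-coding genes. The median of the 10 mean levels was 62.2 TPM, beside 0.355 TPM over protein-coding genes. The members were chosen with earlier results of these data known, so these shares and medians describe them and test nothing. By mean level the order was Il21r, Il4ra, Il27ra, Il6st, Il6ra, Ifngr2, Ifngr1, Il12rb1, Il7r and Il10ra. The values of the 3 libraries were separate between Il21r and Il4ra, between Il6ra and Ifngr2, between Ifngr2 and Ifngr1, and between Il12rb1 and Il7r. The place of Ifngr2 depends on the gene length used: with the longest annotated transcript it averaged 27.5 TPM, below Ifngr1 at 31.4 TPM and Il12rb1 at 31.9 TPM. The other neighbours in that order overlapped: Il27ra did not differ beyond its spread from Il4ra above it or from Il6st below it, nor did Il6st from Il6ra, Ifngr1 from Il12rb1, or Il7r from Il10ra, although Il7r was above Il10ra in 3 of 3 libraries. The plot of levels by library falls into 3 tiers.

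**Figure D1:**
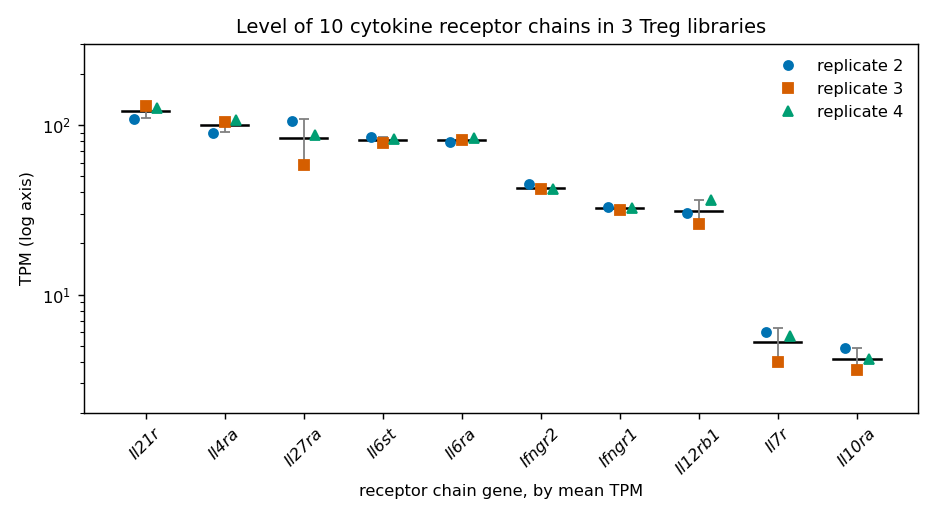
Level of each receptor chain gene in TPM on a log axis, with a point for each library, a black line at the mean and a grey bar of 1 SD (n = 3). The first 5 genes from the left average 81.7 to 121 TPM, the next 3 average 30.9 to 42.7 TPM, and Il7r and Il10ra average 5.25 and 4.19 TPM.

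Among the chains that share the common gamma chain, Il21r and Il4ra were abundant and Il7r was scarce. Il21r, the receptor chain for interleukin-21, a cytokine of follicular helper T cells, lies on chromosome 7 from 125603429 to 125633570 (ENSMUSG00000030745.9; mm10, as are all gene positions here). It stood at 108, 129 and 127 TPM in replicates 2, 3 and 4, above 92.4% of protein-coding genes. Il4ra, the chain shared by the receptors for interleukin-4 and interleukin-13 (ENSMUSG00000030748.9), was at 89.1, 104 and 106 TPM. Replicate 2 was the lowest library for Il21r and for Il4ra. The 2 genes are neighbours on the same strand of chromosome 7, 23.954 kb apart, with Il4ra at 125552120 to 125579474. The nearest protein-coding genes beyond them were Nsmce1 at 78.2 ± 4.80 TPM and Gtf3c1 at 67.0 ± 6.85 TPM. Il7r, which binds interleukin-7 and is needed for survival of naive T cells (ENSMUSG00000003882.4, chromosome 15, 9506161 to 9529876), was at 6.03, 4.02 and 5.70 TPM, from 236, 185 and 534 fragments. With the longest annotated transcript in place of the merged exons as the length, its mean was 3.43 TPM, against 5.25 TPM. Its flanking protein-coding genes, Capsl and Spef2, were at 1.25 ± 0.776 and 0.467 ± 0.0757 TPM.

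The promoters of these 3 genes are shown because they belong to the 2 most abundant members and to the least abundant one that has an entry in the promoter table. The sequences are from RefSeq on GRCm38.p6 and run from 250 bases before the start site to 50 after it: chr7:125603179-125603478 on the plus strand for Il21r, chr7:125552021-125552320 on the plus strand for Il4ra, and chr15:9529827-9530126 on the minus strand for Il7r. Capitals mark a match to TTCNNNGAA, the palindrome that most STAT factors bind, searched on both strands at once because it reads the same on each.

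Il21r: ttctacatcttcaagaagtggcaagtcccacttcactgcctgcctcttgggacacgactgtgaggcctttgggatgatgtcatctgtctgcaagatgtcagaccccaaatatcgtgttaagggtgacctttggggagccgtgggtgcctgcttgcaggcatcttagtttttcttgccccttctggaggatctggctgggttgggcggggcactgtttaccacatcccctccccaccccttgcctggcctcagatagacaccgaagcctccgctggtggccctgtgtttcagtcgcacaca

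Il4ra: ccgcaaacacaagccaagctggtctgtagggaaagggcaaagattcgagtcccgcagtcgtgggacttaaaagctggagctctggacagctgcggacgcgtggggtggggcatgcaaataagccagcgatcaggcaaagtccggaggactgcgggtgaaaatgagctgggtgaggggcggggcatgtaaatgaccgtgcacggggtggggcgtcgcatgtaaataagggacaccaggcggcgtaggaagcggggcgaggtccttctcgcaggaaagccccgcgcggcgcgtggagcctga

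Il7r: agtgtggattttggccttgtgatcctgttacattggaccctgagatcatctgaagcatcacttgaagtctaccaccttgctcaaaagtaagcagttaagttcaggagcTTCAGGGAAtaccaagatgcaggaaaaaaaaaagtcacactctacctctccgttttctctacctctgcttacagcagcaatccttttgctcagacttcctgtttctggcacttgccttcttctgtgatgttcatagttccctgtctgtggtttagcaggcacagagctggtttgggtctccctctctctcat

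The Il7r window held 1 match to TTCNNNGAA, a motif found in 8.3% of all 32851 promoters of that length, and the windows of Il21r and Il4ra held none. The windows also differed in base composition. The Il7r window was 45.7% G and C with 1 CpG, the Il21r window 56% with 7 CpG and the Il4ra window 62% with 25 CpG, against medians of 52.7% and 7 over all promoters. A match describes these letters only, and nothing was measured at the promoters.

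The partner of these chains was more abundant than each of them. Il2rg was at 271, 266 and 278 TPM in replicates 2, 3 and 4. The log2 ratio of Il7r to Il2rg, taken as log2((TPM + 1)/(TPM + 1)) within each library, was -5.46 ± 0.24 (SD, n = 3), that of Il4ra to Il2rg -1.44 ± 0.13 and that of Il21r to Il2rg -1.16 ± 0.14. Each was below 0 in 3 of 3 libraries. Flipping the signs of the library differences in an exact permutation test (two-sided, n = 3) gave p = 0.25 for each, the smallest value that 3 libraries allow, or 0.321 adjusted over the 9 pairs of chains compared. No pair can pass a threshold of 0.05 in this design. Il7r also pairs with Crlf2 to bind thymic stromal lymphopoietin, and Crlf2 was at 33.6, 50.3 and 46.6 TPM, above Il7r in every library.

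Il4ra can pair instead with Il13ra1, to make the receptor that also takes interleukin-13. Il13ra1 was close to absent, with 16 fragments in replicate 2, 0 in replicate 3 and 18 in replicate 4. That made 0.353, 0 and 0.166 TPM, where 3 fragments make at most 0.0662 TPM. The log2 ratio of Il4ra to Il13ra1 was 6.43 ± 0.34 and positive in 3 of 3 libraries (exact sign-flip permutation p = 0.25, n = 3). Its size depends on the pseudocount, and it was 8.76 with 0.1 TPM in place of 1 TPM. The decoy chain Il13ra2 had no fragment in any library.

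**Figure D2:**
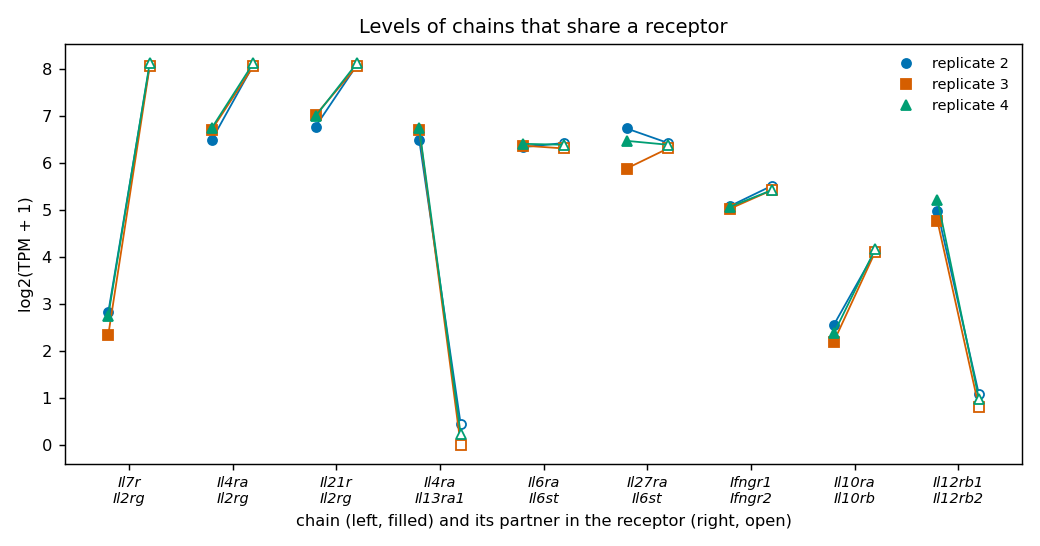
Levels on a log2(TPM + 1) scale of the chains that share a receptor, 1 pair per position, with the first-named chain at the left (filled) and its partner at the right (open), joined for each library. Lines that climb steeply are those of Il7r with Il2rg, lines that drop steeply are those of Il4ra with Il13ra1 and of Il12rb1 with Il12rb2, and those of Il6ra with Il6st are close to level.

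The interleukin-6 receptor genes were abundant and nearly equal. Il6ra, the chain that binds interleukin-6 (ENSMUSG00000027947.11, chromosome 3, 89864059 to 89913196), was at 79.7, 81.6 and 83.8 TPM. Il6st, the signalling chain shared with interleukin-27, leukemia inhibitory factor and oncostatin M (ENSMUSG00000021756.12, chromosome 13, 112464070 to 112510086), was at 84.9, 78.2 and 82.6 TPM. The ranges overlapped and the log2 ratio of Il6ra to Il6st averaged -0.0030 ± 0.08 (range -0.09 to 0.06, exact sign-flip permutation p = 1, n = 3). That near equality rests on the merged exon lengths of the deposited files. With the longest annotated transcript as the length, a setting chosen after the data were seen, Il6ra averaged 58.9 TPM and Il6st 75.5 TPM. Adam10 and Adam17, proteases known to cut the interleukin-6 receptor from the cell surface, were at 109 ± 6.73 and 34.8 ± 1.12 TPM. The shedding list also held Rhbdf1 (12.5 ± 1.94 TPM) and Rhbdf2 (8.40 ± 0.691 TPM), which control Adam17. Of its 4 genes, 4 reached 1 TPM in each library, where 45.6% of protein-coding genes did. An antisense gene, Gm42809, overlaps the start of Il6ra and was at 10.6 ± 0.669 TPM; counting used strand, so its fragments are not in the Il6ra count. Il31ra, the receptor gene next to Il6st, had no fragment.

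Il27ra, the chain that binds interleukin-27 together with Il6st (ENSMUSG00000005465.9, chromosome 8, 84030294 to 84042589), was the most variable member. It was at 105, 57.8 and 87.6 TPM in replicates 2, 3 and 4, from 4499, 2898 and 8952 fragments. It lay above Il6st in replicates 2 and 4 and below it in replicate 3, with a log2 ratio to Il6st of -0.01 ± 0.38 (exact sign-flip permutation p = 1, n = 3). Without replicate 3 that ratio was 0.20. Its neighbours on the chromosome, Rln3 and Palm3, were at 0.0862 ± 0.149 and 0.0107 ± 0.0114 TPM.

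The interferon-gamma receptor genes varied little between the libraries. Ifngr1, the ligand-binding chain (ENSMUSG00000020009.12, chromosome 10, 19591949 to 19610229), was at 32.9, 31.6 and 32.5 TPM, a coefficient of variation of 2.04%, where the median over 7568 protein-coding genes of at least 10 TPM was 6.09%. Ifngr2, the signalling chain (ENSMUSG00000022965.7, chromosome 16, 91547072 to 91565169), was at 44.6, 41.7 and 41.7 TPM. The log2 ratio of Ifngr1 to Ifngr2 was -0.39 ± 0.04 and negative in 3 of 3 libraries (exact sign-flip permutation p = 0.25, n = 3). With the longest annotated transcript as the length the direction turned, and the ratio was 0.19. Which of the 2 chains is more abundant was therefore not settled.

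Ifngr2 lies in a cluster of receptor genes on chromosome 16. Within 141.482 kb of it stood Ifnar1 at 32.8 ± 1.38 TPM, Il10rb at 16.5 ± 0.381 TPM and Ifnar2 at 30.4 ± 0.751 TPM, which encode chains of the type I interferon and interleukin-10 receptors. On chromosome 10, Il22ra2, next to Ifngr1, and Il20ra, 102.34 kb from it, had no fragment. The promoter of Ifngr2 is shown because it held the other STAT-type match among the members: capitals mark TTC and GAA with 4 bases of any kind between them, the spacing that STAT6 prefers, which also reads the same on both strands. It is chr16:91546809-91547108 on the plus strand of GRCm38.p6, from RefSeq.

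Ifngr2: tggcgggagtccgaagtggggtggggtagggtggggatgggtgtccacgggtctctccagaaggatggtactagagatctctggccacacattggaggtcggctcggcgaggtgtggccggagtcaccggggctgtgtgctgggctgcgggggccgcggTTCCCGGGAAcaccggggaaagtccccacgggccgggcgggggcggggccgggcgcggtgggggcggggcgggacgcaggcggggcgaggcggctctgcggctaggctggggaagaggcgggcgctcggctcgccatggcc

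The motif with 4 bases between was in 6.95% of all promoters of that length. Of the 7 members with a promoter entry, 1 held it and 1, Il7r, held TTCNNNGAA. Il27ra, Il10ra and Il12rb1 had no entry in that table. The Ifngr2 window was 74.3% G and C with 31 CpG.

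Il10ra and Il12rb1 differed in which chain of the receptor was scarce. Il10ra, the chain specific to interleukin-10, a cytokine that restrains inflammation (ENSMUSG00000032089.16, chromosome 9, 45253837 to 45269149), was the lowest member at 4.85, 3.57 and 4.16 TPM, from 207, 179 and 425 fragments. Its partner Il10rb, which also serves other receptors of that family, was higher at 16.3, 16.2 and 16.9 TPM. The log2 ratio of Il10ra to Il10rb was -1.76 ± 0.18 and negative in 3 of 3 libraries (exact sign-flip permutation p = 0.25, n = 3). With the longest annotated transcript as the length it was -2.67.

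Il12rb1, a chain of the receptors for interleukin-12 and interleukin-23 (ENSMUSG00000000791.9, chromosome 8, 70808449 to 70821424), was at 30.4, 26.1 and 36.2 TPM. Il12rb2, the partner that completes the interleukin-12 receptor, was at 1.101, 0.736 and 0.956 TPM, from 51, 40 and 106 fragments. The log2 ratio of Il12rb1 to Il12rb2 was 4.04 ± 0.19 and positive in 3 of 3 libraries (exact sign-flip permutation p = 0.25, n = 3). Il23r, the partner for interleukin-23, had no fragment in any library, where 3 fragments would make at most 0.0988 TPM. Counts and such limits cover counting error only.

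Set beside the wider family, the 10 members lay in its upper part. Of 42 other cytokine receptor chains, 16 reached 1 TPM in each of the 3 libraries, where 45.6% of protein-coding genes did. Another 24 chains were below 1 TPM in each, 9 of them with no fragment. The median over the 42 was 0.158 TPM, against 62.2 TPM for the 10 members. Members and lists were chosen with earlier results of these data known, so this difference in medians is a description and not a test. Il7r and Il10ra lay below several of the 42, among them Il10rb, Crlf2, Il17ra, Ifnar1 and Ifnar2. The interleukin-2 receptor chains Il2rb, Il2ra and Il2rg were the 3 chains above Il21r, at 883 ± 32.4, 658 ± 23.3 and 272 ± 6.40 TPM. Il17ra, a chain of the interleukin-17 receptors, was at 38.8 ± 1.23 TPM. Among those without a fragment were Osmr, Cntfr, Csf3r, Il20ra, Il22ra1, Ghr and Il17rc. Lifr had 1 fragment in all, and Il11ra1, whose near-identical copies make its count uncertain, was at 2.05 ± 0.339 TPM. Of the chains that join Il6st, Il6ra and Il27ra were therefore measured near 80 TPM, and Lifr, Osmr and Cntfr at or near 0.

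**Figure D3:**
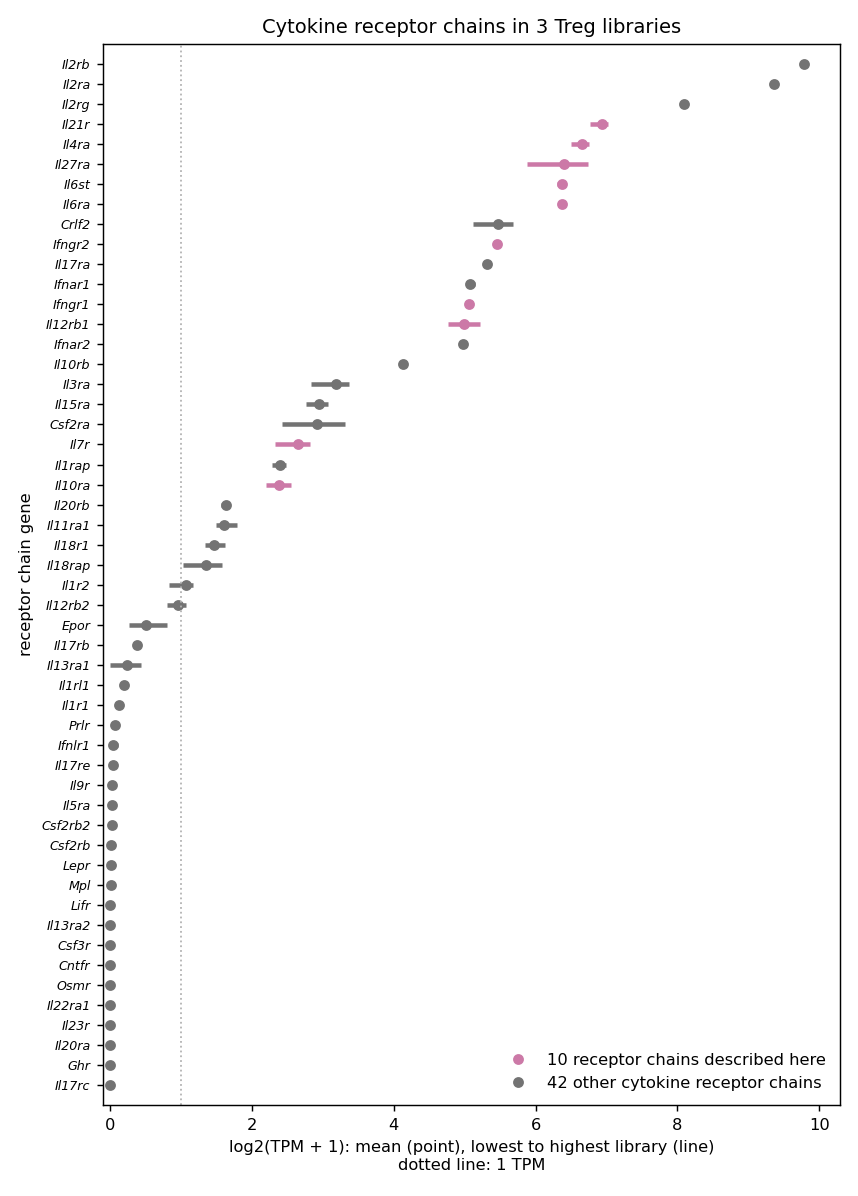
All 10 members and 42 other cytokine receptor chains on a log2(TPM + 1) scale, with a point at the mean and a line from the lowest to the highest library. The members lie between 4.19 and 121 TPM, below the 3 interleukin-2 receptor chains and above the 24 chains that stay under 1 TPM in each library.

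Ligands of these receptors were mostly below 1 TPM in the same cells, apart from Lif, Osm, Clcf1 and Ebi3. Of 19 ligand genes, 4 reached 1 TPM in each library, where 45.6% of protein-coding genes did. The other 15 ligand genes were below 1 TPM throughout, 4 of them with no fragment. Lif, leukemia inhibitory factor, was at 215, 205 and 216 TPM, Osm, oncostatin M, at 40.9, 42.5 and 39.1 TPM, and the cytokine Clcf1 at 21.3, 19.6 and 24.1 TPM. These 3 signal through Il6st together with chains that were near 0 here. Ebi3, a subunit shared by interleukin-27 and interleukin-35, was at 6.45 ± 0.824 TPM, whereas its interleukin-27 partner Il27 had no fragment and its interleukin-35 partner Il12a was at 0.636 ± 0.117 TPM. Il6, Il7 and Tslp had no fragment. Il21 had 4, 0 and 7 fragments, Il4 3, 0 and 0, Il10 0, 1 and 1, and Ifng 1, 0 and 0. Il13 had 17 fragments in replicate 3 and 0 in replicates 2 and 4.

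**Figure D4:**
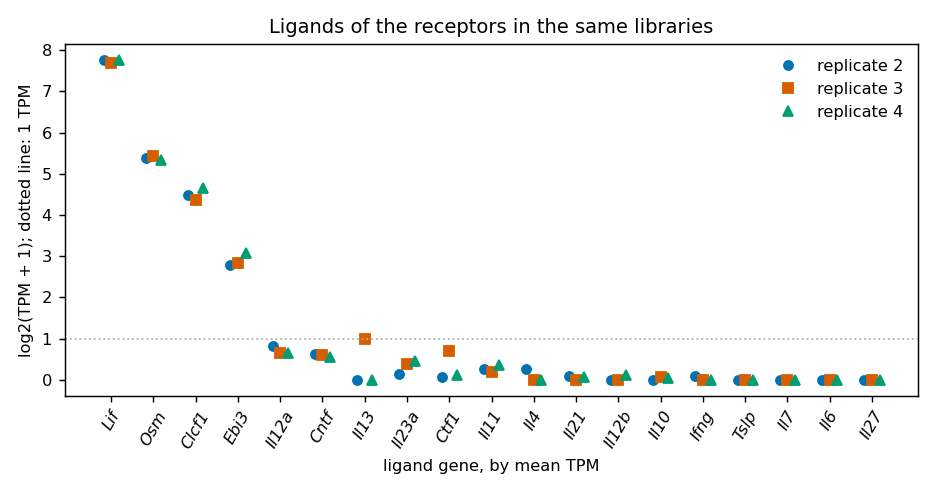
Level of 19 ligand genes on a log2(TPM + 1) scale, with a point for each library and a dotted line at 1 TPM. Lif, Osm, Clcf1 and Ebi3 lie above the line in all 3 libraries, and the other 15 lie below it.

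All 20 listed kinases, STAT factors and feedback regulators of these receptors reached 1 TPM throughout, where 45.6% of protein-coding genes did. The phosphatase Ptpn6 (604 ± 35.1 TPM), the feedback inhibitor Cish (354 ± 13.8 TPM) and Stat6, which acts below Il4ra (310 ± 12.5 TPM), were highest. Stat4, which acts below the interleukin-12 receptor, was at 11.99 ± 0.573 TPM, Socs2 at 10.8 ± 1.56 TPM and Stat2 at 9.58 ± 0.295 TPM. Stat3, which acts below Il6st, Il21r and Il10ra, was at 87.2 ± 1.75 TPM.

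Genes that the receptors are known to induce were detected in part. Of 22 interferon-gamma response genes, 12 reached 1 TPM in each library, where 45.6% of protein-coding genes did. Whether the share of any response list differs from that background was not tested. The highest were Irf8 (761 ± 24.7 TPM), Cd274 (132 ± 5.60 TPM) and Psmb8 (132 ± 7.23 TPM). Cxcl9 had no fragment, Gbp6 was at 0.0654 ± 0.0171 TPM and Iigp1 at 0.0124 ± 0.0132 TPM. Of 12 STAT3 response genes, 9 did so, led by the kinase gene Pim1 (486 ± 26.9 TPM), Hif1a (137 ± 15.7 TPM) and Batf (86.3 ± 4.33 TPM), while Il17a had 4 fragments in all and Il22 none. Of 10 STAT6 response genes, 5 did so, led by the chemokine receptor Ccr8 (873 ± 39.3 TPM), Cdkn1a (102 ± 16.9 TPM) and Ccr4 (67.4 ± 3.57 TPM), while Arg1 and Retnla had no fragment and Il1rl1 was at 0.144 ± 0.0486 TPM. Several of these genes have other inducers, so their levels do not show that a receptor was engaged.

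Between the 3 libraries, the members moved by less than a factor of 2. A gene was called different at an adjusted p under 0.05 (chi-square test of equal rates, 2 degrees of freedom, adjusted over 13688 genes) together with a highest-to-lowest ratio of 2 or more in CPM (counts per 1000000 fragments of the effective library size). By that rule 0 of 10 members were called, where 11% of all genes tested were called, or 764 of 11461 among protein-coding genes alone. At an unadjusted p under 0.05 there were 8 of 10, and also 8 of 10 at an adjusted p under 0.05, where 70.5% of all genes tested reached that, so the members' share is near the background. The test covers counting error and compares these libraries, not conditions.

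Il27ra had the highest ratio. Its CPM were 108, 61.1 and 90.8 in replicates 2, 3 and 4, a ratio of 1.77 (adjusted p = 3.66e-127 by the chi-square test, 16349 fragments), and 1.55% of 9925 protein-coding genes that reached 1 TPM throughout had a higher one. Its coefficient of variation in TPM over the 3 libraries was 28.8%. The biological coefficient of variation that edgeR fitted was 11.5%, with the trend over genes of like abundance at 7.07%. That fitted value is drawn toward the trend and is not the measured spread. At a ratio of 1.5 or more it was the 1 member called, where 16.1% of all genes tested, protein-coding or not, were called. Il7r followed with CPM of 5.67, 3.90 and 5.42, a ratio of 1.45 (adjusted p = 0.000295 by the chi-square test). Il12rb1 had 36.6, 32.4 and 44.1 CPM, a ratio of 1.36 (adjusted p = 3.55e-26). Il10ra had 4.97, 3.77 and 4.31 CPM, a ratio of 1.32 (adjusted p = 0.0375).

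Replicate 3 was the lowest library for 6 members, among them these 4, replicate 2 for 3 members and replicate 4 for 1. These counts include Ifngr1 and Ifngr2, whose libraries did not differ detectably. They have no share over all genes beside them, so they show no pattern particular to the members. Il4ra and Il21r moved together and the other way, with CPM of 157 and 105 in replicate 2, the lowest library for each, 188 and 129 in replicate 3, and 189 and 125 in replicate 4 (ratios of 1.21 and 1.22, adjusted p = 2.28e-39 and 1.99e-25 by the chi-square test). The remaining members, Il6ra, Ifngr2, Il6st and Ifngr1, had ratios of 1.01 to 1.06. For Ifngr1 (adjusted p = 0.966 by the chi-square test) and Ifngr2 (adjusted p = 0.204) a difference was not detectable at this depth.

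**Figure D5:**
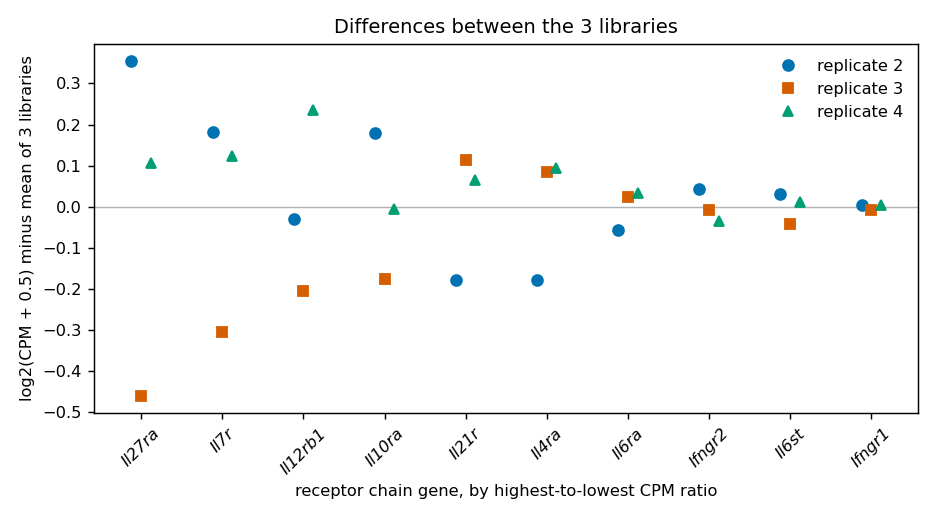
Deviation of each member in each library from its mean over the 3 libraries, on a log2(CPM + 0.5) scale, ordered by the highest-to-lowest CPM ratio. Replicate 3 is lowest for Il27ra, Il7r, Il12rb1 and Il10ra, replicate 2 is lowest for Il21r and Il4ra, and the 4 genes at the right lie within 0.1 of 0.

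Libraries also differed in sex-linked genes. Xist, the RNA of the inactive X chromosome, was high in replicate 2, intermediate in replicate 4 and near 0 in replicate 3. The Y-linked gene Ddx3y was at 0.126, 39.3 and 28.4 TPM in replicates 2, 3 and 4. The library lowest in Xist was thus also the lowest in Il27ra, Il7r, Il12rb1 and Il10ra. Of these, Il12rb1 was highest in replicate 4 and not in replicate 2. By contrast Il21r was highest in replicate 3, and replicate 2, the highest in Xist, was lowest for 3 members. The part of sex-linked differences in those values was not tested.

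The genes whose pattern over the 3 libraries was most like that of Il27ra were Nlrc5, Il18rap and Cnih3, at distances of 0.03, 0.06 and 0.06 between centred log2(CPM + 0.5) values, among 9925 protein-coding genes. Nlrc5, a regulator of MHC class I genes, was at 33.8, 18.05 and 27.3 TPM, and Il18rap, a chain of the interleukin-18 receptor, at 1.98, 1.04 and 1.61 TPM. For Il7r they were Zfp994, Slc39a8 and Zbtb37, at distances of 0.0018, 0.013 and 0.015. Zfp994, named as a zinc finger protein, was at 3.31, 2.19 and 3.12 TPM, and Slc39a8, a metal ion transporter, at 4.74, 3.18 and 4.43 TPM. With 3 libraries and 9925 candidates, a close match is easily had. Interferon-gamma response genes that the library test called were Ciita (8, 2 and 27 fragments), Gbp3 (69, 23 and 67) and Tgtp1 (42, 14 and 49), 3 of 18 tested, where 11% of all genes were called. The count of Tgtp1 is uncertain, since its near-identical copy Tgtp2 had 20, 41 and 65 fragments and was highest in TPM in replicate 3 (0.558, 0.974 and 0.757 TPM), where Tgtp1 was lowest. Of the STAT6 response genes 1 of 7 was called, Il4i1 at 2.09, 0.667 and 1.78 TPM, lowest in replicate 3. Of the other receptor chains 3 of 24 were called: Il13ra1, Csf2ra at 4.34, 6.49 and 8.88 TPM, and Epor at 0.206, 0.737 and 0.292 TPM. Over protein-coding genes alone 764 of 11461 were called. With so few genes called in each list, whether these shares differ from the background was not tested.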

How the data were processed

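RNA of mouse Treg cells was measured in 3 libraries; the assay label reads total RNA, while the linked library protocol is named for polyadenylated RNA. What the authors deposited are raw fragment counts for each gene, beside merged exon lengths. Per the file headers these came from featureCounts 1.4.6-p4 over exons of GENCODE M13 (mm10), paired-end, with strand option 2. Aligner settings were not given in the sources used here. No option for fragments with several alignments was set, so near-identical genes can be undercounted.

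From the counts, TPM were computed as count over exon length, scaled to 1000000 in each library. Symbols came from GENCODE M21 by unversioned identifier (50376 of 50600 matched) and promoters from RefSeq (7 of 10 members); protein sequences were not used here. One group leaves edgeR's quasi-likelihood test without a contrast. Each gene was therefore tested for equal rates in the libraries with a chi-square statistic on TMM effective sizes (trimmed means of M values; edgeR 4.0.16 under R 4.3.3), for summed counts of 30 or more, with Benjamini-Hochberg adjustment. In ratios, 0 counts were replaced by 3 fragments. The test was checked on simulated counts, and its error rate was required to hold only for draws with counting error alone. That check therefore does not cover variation between libraries beyond counting error. Other software was Python 3.11.15 with scipy 1.17.1, pandas 2.3.3 and matplotlib 3.10.9, and DESeq2 1.42.0 for alternative size factors. Any 2 libraries differed beyond sampling noise (mean chi-square per gene 17.2 to 26.6, 1 degree of freedom), so all 3 were counted.

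The 10 members and the gene lists were chosen with earlier results of these data known. Named were all members; in each list the 3 highest, the 3 lowest, genes called in the library test and partner chains; and for the 2 members of highest ratio the 3 genes nearest in pattern. Crlf2, Il17ra, Il11ra1, Ifnar1, Ifnar2, several ligands, Stat3, the interleukin-1 and interleukin-18 receptor chains, neighbouring genes, Tgtp2, the CD8 markers, one antisense gene and the sex-linked genes were named after their values were seen.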

Additional observations from a re-analysis of the deposited data

How the results depend on the processing

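Counts of detected genes among the members and in the 8 lists of receptors, ligands, signalling and response genes stayed within 1.5 times the main value under every alternative run (detection at 0.5 or 2 TPM, other denominators and lengths, leaving out a library). With TPM scaled to protein-coding genes outside the mitochondrial genome, mean levels moved beyond 1 SD for Ifngr1 (34.4 TPM), Ifngr2 (45.4), Il6ra (87.0) and Il6st (87.2). With the longest annotated transcript as the length, a setting added after the data were seen, they moved for Ifngr1 (31.4 TPM), Ifngr2 (27.5), Il10ra (3.02), Il4ra (82.1), Il6ra (58.9), Il6st (75.5) and Il7r (3.43), by construction of the lengths. That length also turned the log2 ratio of Ifngr1 to Ifngr2 to 0.19 and that of Il27ra to Il6st to 0.025. Leaving out 1 library gave -0.17 to 0.20 for Il27ra to Il6st (0.20 without replicate 3) and -0.035 to 0.040 for Il6ra to Il6st (0.040 without replicate 2), ratios that are not distinguishable from 0; the other 6 kept their sign under every alternative run. In the library comparison 1505 genes were called, 2821 without the count filter, because more genes enter, and 523 to 777 when 1 library was left out. Members called numbered 0 under every setting except a ratio of 1.5 or more, which called 1, Il27ra. No paired analysis was possible because there is 1 group. Il7r and Il10ra rest on 179 to 534 fragments per library and are the least precise members.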

Other observations

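Factors known to control Il7r transcription in T cells were present while Il7r itself was at 5.25 ± 1.07 TPM (SD, n = 3). All 8 genes of that list reached 10 TPM in every library, where 34.8% of protein-coding genes did. Tcf7 was at 1017 ± 26.2 TPM and Ets1 at 307 ± 14.4 TPM. Foxo1, an activator of Il7r, was at 74.6 ± 4.06 TPM, Gabpa, another activator, at 56.1 ± 5.92 TPM and Runx3 at 54.5 ± 1.98 TPM. Gfi1, a repressor of Il7r in mouse T cells, was at 32.3 ± 2.36 TPM. No test relates these levels to Il7r.

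Among receptor chains of the interleukin-1 and interleukin-18 family, Il1rap was at 4.26 ± 0.367 TPM, close to Il10ra at 4.19 ± 0.640 TPM. The others were lower, with Il18r1 at 1.76 ± 0.275, Il1r2 at 1.09 ± 0.273, and Il1rl1, the interleukin-33 receptor chain of tissue Treg cells, at 0.144 ± 0.0486, from 8, 19 and 29 fragments. Replicate 4 held both Xist and Y-linked RNA, replicate 2 mostly Xist and replicate 3 mostly Y-linked RNA, with Eif2s3y at 0.0985, 41.4 and 34.1 TPM in replicates 2, 3 and 4.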
